A study of Rattus norvegicus with 11 samples.

Results

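The collapsin response mediator protein (CRMP) genes Crmp1, Dpysl2, Dpysl3, Dpysl4 and Dpysl5, together with Gap43, are described here in cultured rat hippocampal neurons that expressed an added linker histone or a control protein. They were taken by gene symbol, and all 6 were present among 42172 gene entries and passed the filter on low counts. Polyadenylated RNA was sequenced from primary hippocampal neurons of CD (Sprague Dawley) IGS rats at day 7 in vitro. The groups were 4 libraries with H1.4 CFT, a linker histone H1.4 whose C-terminal tail is altered by a frameshift, 4 with exogenous wild-type H1.4 (WT H1.4) and 3 with green fluorescent protein as control (GFP). The replicate numbers are 1 to 4 for H1.4 CFT and WT H1.4 and 2 to 4 for GFP. How the constructs were delivered, which promoter drove them and what share of the cells carried them are not given in the sources used here.

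CRMPs are cytosolic phosphoproteins of the growth cone, the motile tip of an extending axon or dendrite. They are related in sequence to the pyrimidine-degrading enzyme dihydropyrimidinase, assemble into mixed tetramers and link the repulsive cue semaphorin 3A to tubulin and actin. The kinases Cdk5 and GSK3 phosphorylate them in turn, which loosens their hold on tubulin. GAP-43, the product of Gap43, is a membrane-bound growth cone protein that binds calmodulin and is a substrate of protein kinase C. Growing and regenerating neurons make it in large amounts.

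Each library held between 12070941 and 18846492 reads assigned to genes. The 6 genes together took 0.637% to 0.731% of these counts in H1.4 CFT libraries, 0.849% to 0.883% in WT H1.4 libraries and 0.800% to 0.856% in GFP libraries. Neuronal markers were present in every library, with Slc17a7, the vesicular glutamate transporter of hippocampal excitatory neurons, at 306.6 to 428.3 CPM (a count relative to its library size, after TMM normalisation) and the neuronal nuclear marker Rbfox3 at 89.3 to 128.5 CPM across all libraries. The astrocyte filament gene Gfap (292 to 601.9 CPM) and the proliferation gene Mki67 (59.4 to 79.8 CPM) were present too. H1f4, the rat gene for H1.4, had 5 to 8 counts in H1.4 CFT libraries, 1 to 5 in WT H1.4 libraries and 0 to 2 in GFP libraries, and it does not check the labels because the sequence of the constructs is not given.

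RefSeq promoter sequences of the GRCr8 build were at hand for 4 of the 6 genes. They are shown because these genes fell together in the comparisons below. Each line gives 250 bases upstream of an annotated start, 5′ to 3′ on the gene's strand, with matches to the GC box GGGCGG on either strand in capitals. GRCr8 is not the build on which the reads were counted. Dpysl3 has a pair of annotated starts, and both are shown.
Crmp1, chr14:77780917-77781166, minus strand: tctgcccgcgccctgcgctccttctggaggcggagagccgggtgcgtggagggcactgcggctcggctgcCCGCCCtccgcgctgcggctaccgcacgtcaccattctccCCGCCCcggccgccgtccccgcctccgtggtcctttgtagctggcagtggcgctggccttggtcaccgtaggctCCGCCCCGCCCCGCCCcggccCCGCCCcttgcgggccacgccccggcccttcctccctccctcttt
Dpysl3, first start, chr18:35731153-35731402, minus strand: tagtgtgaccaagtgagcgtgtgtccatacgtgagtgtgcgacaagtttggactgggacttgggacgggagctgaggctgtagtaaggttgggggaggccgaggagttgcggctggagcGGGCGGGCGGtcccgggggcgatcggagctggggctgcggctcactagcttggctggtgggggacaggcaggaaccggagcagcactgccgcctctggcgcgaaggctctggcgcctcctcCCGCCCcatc
Dpysl3, second start, chr18:35688512-35688761, minus strand: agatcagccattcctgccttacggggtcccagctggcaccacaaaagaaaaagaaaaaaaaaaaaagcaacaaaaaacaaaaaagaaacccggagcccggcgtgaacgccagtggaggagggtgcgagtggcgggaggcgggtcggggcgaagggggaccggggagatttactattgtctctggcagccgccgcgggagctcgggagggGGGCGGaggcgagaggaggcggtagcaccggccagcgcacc
Dpysl4, chr1:203312463-203312712, plus strand: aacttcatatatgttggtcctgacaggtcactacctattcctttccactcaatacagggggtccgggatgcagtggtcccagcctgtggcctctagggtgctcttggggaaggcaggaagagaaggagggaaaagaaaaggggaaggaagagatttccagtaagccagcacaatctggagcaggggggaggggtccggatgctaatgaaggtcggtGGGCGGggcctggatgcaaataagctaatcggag
Dpysl5, chr6:31379349-31379598, minus strand: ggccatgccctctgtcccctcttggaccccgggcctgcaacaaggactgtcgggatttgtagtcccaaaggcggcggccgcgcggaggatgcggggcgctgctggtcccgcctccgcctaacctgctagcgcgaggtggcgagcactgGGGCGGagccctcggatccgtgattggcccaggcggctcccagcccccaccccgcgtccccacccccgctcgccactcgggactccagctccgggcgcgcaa

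The upstream stretches of Crmp1 and Dpysl5 were rich in G and C, at 76.4% and 72.8%, against a median of 51.2% over 33465 such stretches of the same length. Those of Dpysl3 held 67.2% at the first start and 61.2% at the second, and that of Dpysl4 held 54.4%. CG dinucleotides numbered 30 for Crmp1, 26 for Dpysl5, 19 and 20 for the starts of Dpysl3 and 5 for Dpysl4, where the median over all stretches was 5. The GC box, the binding motif of Sp1-type factors, matched 6 times in the Crmp1 stretch with overlapping matches counted, 3 times at the first Dpysl3 start and once in each of the others. It occurred in 30.5% of all stretches. The E-box CANNTG, a motif of basic helix-loop-helix factors, matched once at each Dpysl3 start and in 65.5% of all stretches. The sequence TATAAA matched none of these stretches and 12.9% of all. The cyclic AMP response motif TGACG matched once, in the Crmp1 stretch, and in 18.2% of all. All motifs were searched on both strands. No match in such a window says only that these letters are not in it.

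Does the frameshifted H1.4 act on these genes differently from the wild-type protein? Each of the 6 was lower in neurons with H1.4 CFT than in those with WT H1.4, by between 1.25-fold for Dpysl5 and 1.49-fold for Dpysl3. Each passed the test, whereas 35.9% of the 17294 genes tested were called and 19.2% were called lower (edgeR quasi-likelihood test over all 11 libraries, Benjamini-Hochberg adjusted p under 0.05). Of the 5074 genes whose mean reached 50 CPM, as all 6 did, 33% were called lower. The libraries of H1.4 CFT lay below all those of WT H1.4 for 6 of the 6 genes, which 18.5% of all genes tested did. The median log2 fold change of the 6 was -0.39, against 0.018 over all genes tested. In such bulk samples, fewer cells of a type and less RNA per cell cannot be told apart.

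Dpysl3 encodes CRMP4, a family member that binds actin filaments and is typical of young neurons. Its level in replicates 1 to 4 was 1998, 2041, 1823 and 1795 CPM with H1.4 CFT and 2759, 2880, 2851 and 2914 CPM with WT H1.4, and in GFP replicates 2 to 4 it was 2698, 2503 and 2540 CPM. The H1.4 CFT libraries stood apart at the low end, and the WT H1.4 libraries lay just above those of GFP. The log2 fold change of H1.4 CFT over WT H1.4 was -0.57 (SE 0.046, 95% interval -0.67 to -0.48, adjusted p = 6.82e-08). By its p-value Dpysl3 was number 13 of the 17294 genes tested.

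Dpysl2 encodes CRMP2, which carries tubulin dimers to growing microtubule ends and promotes axon formation. With H1.4 CFT it stood at 1664, 1655, 1374 and 1324 CPM in replicates 1 to 4, with WT H1.4 at 1935, 2023, 1799 and 1935 CPM, and in GFP replicates 2 to 4 at 1995, 1782 and 1756 CPM. All H1.4 CFT libraries were below all others, and the WT H1.4 and GFP libraries overlapped. It fell 1.28-fold against WT H1.4 (log2 fold change -0.35, SE 0.075, adjusted p = 0.00256).

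Crmp1, the gene of a family member that acts in semaphorin 3A signalling and neuronal migration, had 1296, 1346, 1146 and 1127 CPM with H1.4 CFT, 1535, 1578, 1583 and 1625 CPM with WT H1.4 and 1506, 1473 and 1486 CPM with GFP. The 3 groups did not overlap, and H1.4 CFT was the lowest. The fall against WT H1.4 was 1.29-fold (log2 fold change -0.36, SE 0.050, adjusted p = 1.79e-05).

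Dpysl5 encodes CRMP5, the most distant relative in the family, which counteracts the outgrowth-promoting action of CRMP2. It had 1227, 1283, 1144 and 1096 CPM with H1.4 CFT, 1435, 1506, 1494 and 1505 CPM with WT H1.4 and 1427, 1302 and 1303 CPM with GFP. The highest H1.4 CFT library lay just under the lowest GFP library, and the WT H1.4 libraries were above all others. Against WT H1.4 it fell 1.25-fold (log2 fold change -0.32, SE 0.048, adjusted p = 4.24e-05).

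Dpysl4, which encodes CRMP3, a family member studied for hippocampal dendrites, had 91.4, 96.6, 72.6 and 75.6 CPM with H1.4 CFT, 112.1, 123.8, 109.8 and 115.8 CPM with WT H1.4 and 123.4, 122.4 and 117.5 CPM with GFP. The H1.4 CFT libraries were again the lowest, and those of WT H1.4 and GFP overlapped. It fell 1.37-fold against WT H1.4 (log2 fold change -0.46, SE 0.079, adjusted p = 0.000529).

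Gap43 had 774.9, 774.2, 590.3 and 618.0 CPM with H1.4 CFT, 954.1, 966.9, 865.9 and 895.0 CPM with WT H1.4 and 956.2, 931.9 and 933.1 CPM with GFP. The GFP libraries fell inside the range of WT H1.4, and every H1.4 CFT library was below both. Gap43 fell 1.34-fold against WT H1.4 (log2 fold change -0.42, SE 0.084, adjusted p = 0.00243).

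**Figure D1:**
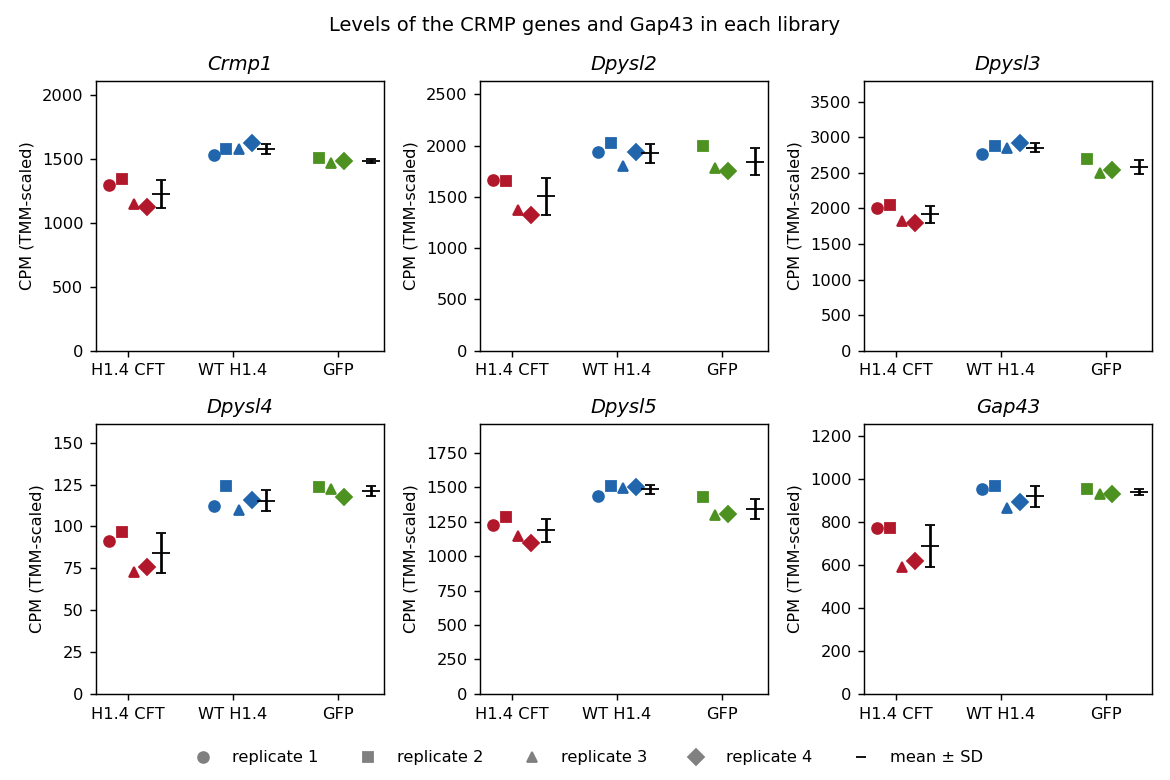
Levels of the 6 genes in CPM (TMM-scaled, y axis from 0) in each library of H1.4 CFT, WT H1.4 and GFP neurons, with the replicate number as the marker shape and the mean ± SD as a bar. In every panel the 4 H1.4 CFT libraries are the lowest, and replicates 3 and 4 of H1.4 CFT lie below its replicates 1 and 2.

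A comparison with the GFP control shows the mutant against neurons with no added histone. Each of the 6 was lower with H1.4 CFT than with GFP as well, where 29.5% of all genes tested were called in either direction, and 16.2% of all genes tested and 26.8% of those with a mean of at least 50 CPM were called lower. The H1.4 CFT libraries of this comparison are those already set against WT H1.4. Again every H1.4 CFT library lay below every GFP library for 6 of 6 genes, as it did for 18.5% of all genes tested. Dpysl4 had the largest fall, 1.44-fold (84.0 ± 11.8 against 121.1 ± 3.16 CPM, SD, n = 4 and 3, log2 fold change -0.53, adjusted p = 0.000425 by edgeR). Gap43 fell 1.36-fold (log2 fold change -0.45, adjusted p = 0.00307) and Dpysl3 fell 1.35-fold (log2 fold change -0.43, adjusted p = 3.41e-06). Dpysl2 and Crmp1 fell 1.23-fold and 1.21-fold, with adjusted p of 0.0147 and 0.000659. Dpysl5 had the smallest fall, 1.13-fold (log2 fold change -0.18, SE 0.052, adjusted p = 0.0134). The calls for Dpysl2 and Dpysl5 were lost when GFP replicate 2 alone was left out. Their adjusted p by edgeR then became 0.0664 and 0.0840, with log2 fold changes of -0.24 and -0.14. Both kept their call with replicates 3 and 4 alone of each group, which also leaves out GFP replicate 2. Those replicates were chosen for their likeness, so that fit calls too readily.

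The wild-type protein was also set against the GFP control. In that comparison 0 of the 6 genes were called in WT H1.4 neurons by edgeR, by DESeq2 or by limma-voom, where 0.943% of all genes tested were called by edgeR. That was 163 genes, and 248 with the replicate number as a block, which changed no call of the 6. At an unadjusted p under 0.05 there were 2, Dpysl3 and Dpysl5. Both had a log2 fold change of 0.14 (adjusted p of 0.213 and 0.249, 95% intervals 0.041 to 0.25 and 0.035 to 0.25). Crmp1 had a log2 fold change of 0.087 and Dpysl2 of 0.060, while Dpysl4 and Gap43 stood at -0.070 and -0.031. The WT H1.4 libraries lay above all GFP libraries for 3 of the 6 genes, Crmp1, Dpysl3 and Dpysl5, as they did for 6.29% of all genes tested. In the order of levels, therefore, H1.4 CFT was lowest for each gene and the other groups were not told apart by the test. With replicates 3 and 4 alone of each group in the fit, 1596 genes were called in place of 163. Crmp1, Dpysl3 and Dpysl5 passed there, with log2 fold changes of 0.12, 0.20 and 0.21. The choice of these replicates was taken from the likeness of the libraries, described below. That fit therefore holds less spread than all replicates do, its calls are too many, and no p is given. Dpysl3 also passed without the low-count filter (adjusted p = 0.0474, 462 genes called). It passed as well with WT H1.4 and GFP alone in the fit (adjusted p = 0.0468, 348 genes called). Over all settings tried, the adjusted p of Dpysl3 in this comparison reached as high as 0.602.

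**Figure D2:**
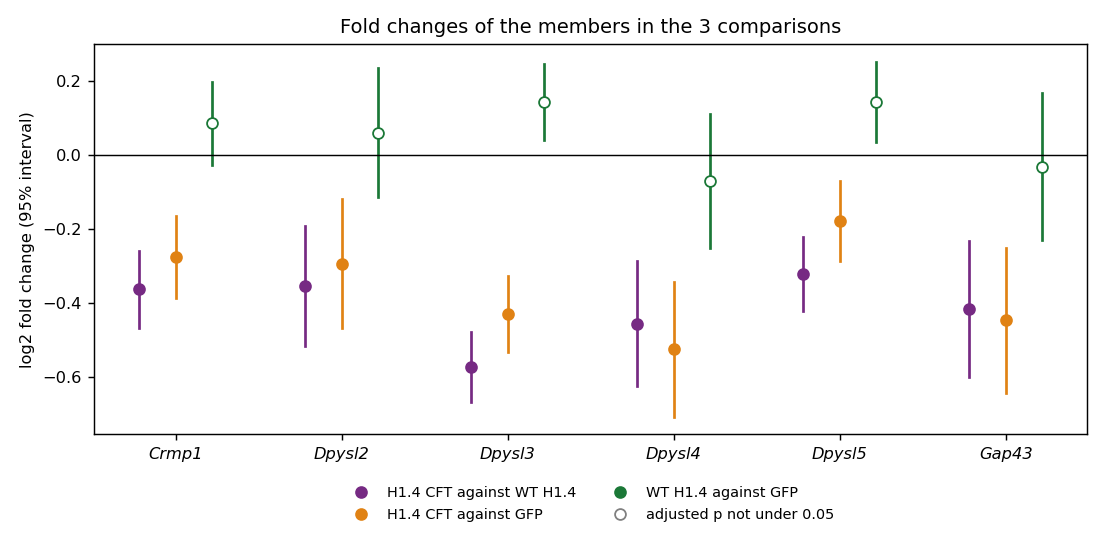
Log2 fold changes of the 6 genes with 95% intervals from the edgeR fit for H1.4 CFT over WT H1.4, for H1.4 CFT over GFP and for WT H1.4 over GFP. Filled points passed an adjusted p of 0.05: all 12 of the H1.4 CFT comparisons lie below 0, and none of the 6 for WT H1.4 over GFP passed.

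The size of the fall differed between libraries with different replicate numbers. In H1.4 CFT, replicates 3 and 4 were lower than replicates 1 and 2 for every one of the 6 genes. For each gene H1.4 CFT was the most variable group, with a coefficient of variation of 6.43% for Dpysl3 to 14.4% for Gap43, against 2.27% to 5.32% in WT H1.4 and 1.10% to 7.10% in GFP. For Gap43 the log2 fold change of H1.4 CFT over WT H1.4 was -0.31 among replicates 1 and 2 and -0.53 among replicates 3 and 4. The difference between these was -0.22 (SE 0.045, edgeR fit of 8 libraries with a term for group by number pair). For Crmp1 the values were -0.24 and -0.49, with a difference of -0.25 (SE 0.043). The fall was larger in replicates 3 and 4 for all 6 genes. The share of all genes tested that differed in this way was not counted, so whether the 6 stand out is not known. The smallest differences were -0.18 for Dpysl3 and Dpysl5 and -0.20 for Dpysl2, and Dpysl4 had the largest, -0.27. The split was taken from the likeness of these libraries, so the differences are a description of them and no p is given. No label names a batch. Across all genes, libraries of one group within a number pair differed 1.78 to 2.22 times as much as counting alone gives, and those of different pairs 3.67 to 9.19 times. The series calls the libraries biological replicates of cultures, and which animals or preparations each came from is not given.

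**Figure D3:**
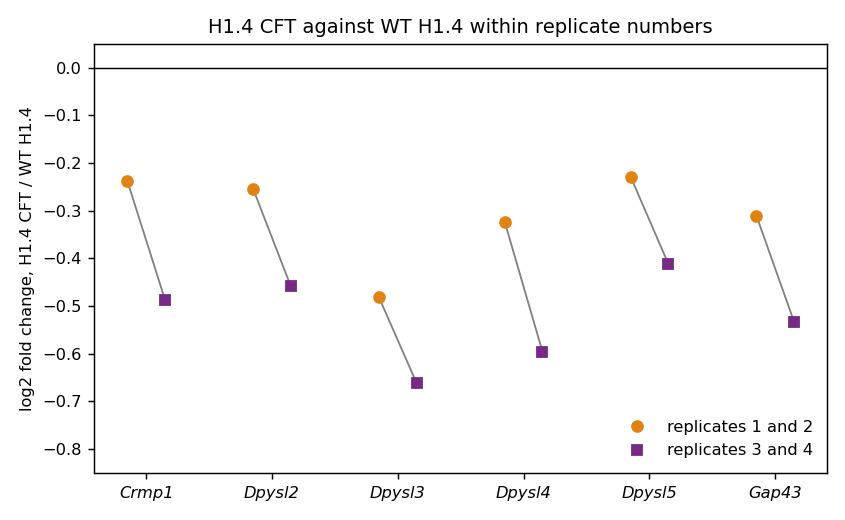
Log2 fold change of each gene for H1.4 CFT over WT H1.4, from replicates 1 and 2 (circles) and from replicates 3 and 4 (squares) of both groups. All values lie below 0, from -0.23 for Dpysl5 to -0.66 for Dpysl3, and each square is lower than its circle.

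The make-up of the CRMP transcripts was compared next. A gene's share of the summed counts of the 5 within a library does not depend on how libraries are scaled. The shares add up to the whole, so a lower share of one gene raises the others together, and the tests are not independent. A higher share is not a higher level, since all 5 genes fell in level with H1.4 CFT. Dpysl3 made up 31.8%, 31.8%, 32.8% and 33.1% of CRMP counts in H1.4 CFT replicates 1 to 4, 35.5%, 35.5%, 36.4% and 36.0% in those of WT H1.4, and 34.8%, 34.8% and 35.3% in GFP replicates 2 to 4. Its share was thus lowest in H1.4 CFT, with no overlap, with differences of -3.46 percentage points from WT H1.4 and -2.59 from GFP. Dpysl5 had the opposite pattern, at 20.1 ± 0.430% with H1.4 CFT, 18.7 ± 0.268% with WT H1.4 and 18.2 ± 0.177% with GFP (SD, n = 4, 4 and 3). The share of Crmp1 was 20.8 ± 0.158% in H1.4 CFT and 19.9 ± 0.332% in WT H1.4, again without overlap, and at 20.2 ± 0.660% in GFP it overlapped H1.4 CFT. The share of Dpysl4 was 1.42% with H1.4 CFT, 1.45% with WT H1.4 and 1.64% with GFP, with the GFP libraries above all others. In exact two-sided permutation tests, 8 of the 15 shares compared reached p = 0.0286, the smallest these group sizes allow, and their Benjamini-Hochberg adjusted p was 0.0536. No share passed the adjusted threshold. For Dpysl2 the groups overlapped in each comparison.

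**Figure D4:**
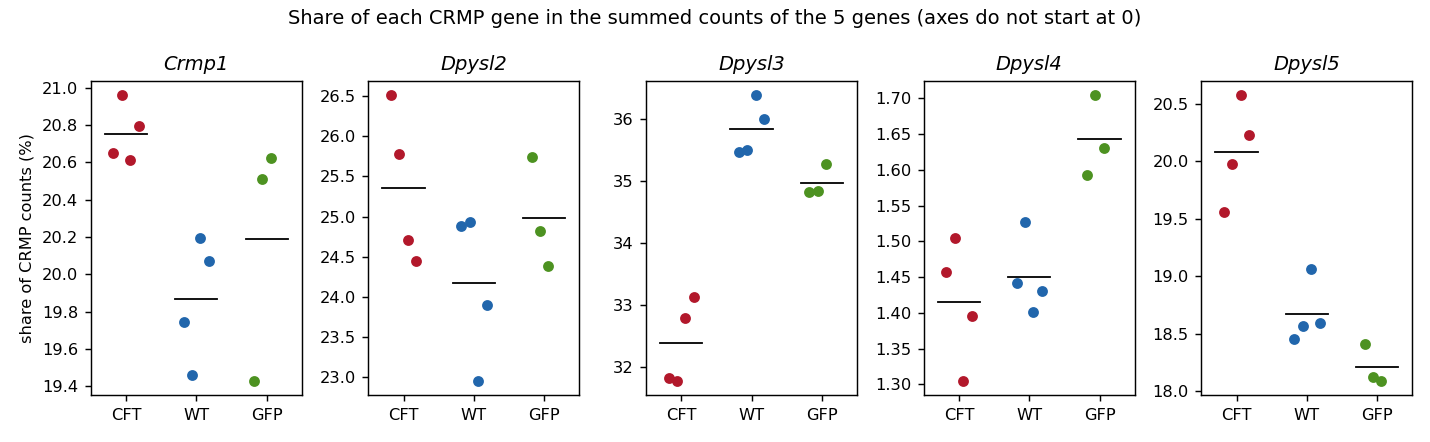
Share of each CRMP gene in the summed counts of the 5 genes, in percent, for each library (points) with the group mean (line), where CFT is H1.4 CFT and WT is WT H1.4. The y axes do not start at 0. The Dpysl3 share is lowest and the Dpysl5 share highest in the H1.4 CFT libraries.

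Other neuronal genes moved beside the members. Of the 14 pan-neuronal markers listed, Gap43 among them, 11 fell in H1.4 CFT over WT H1.4, 1 rose and 2 did not pass (median log2 fold change -0.42). Among all genes tested 19.2% fell and 16.7% rose, and 33% of those with a mean of at least 50 CPM fell. The summed level of the 13 markers other than Gap43 was 5258 to 6176 CPM with H1.4 CFT, 7386 to 7578 CPM with WT H1.4 and 7171 to 7441 CPM in GFP. Its largest parts with WT H1.4 were Tubb3 (1662 CPM), Stmn2 (1554 CPM) and Map2 (1319 CPM), which all fell in H1.4 CFT. Map2 and Stmn2 also belong to the lists of CRMP binding partners and growth cone cytoskeleton below. Snap25 and Elavl3 did not pass and Thy1 rose. Tubb3, Snap25, Elavl3 and Thy1 were named after their values were seen. The CRMP genes together stood at 103.0% to 105.5% of that sum with H1.4 CFT, 103.4% to 108.8% with WT H1.4 and 98.99% to 104.1% with GFP. Gap43 stood at 12.1 ± 0.742%, 12.3 ± 0.761% and 12.9 ± 0.0926% of it in the same order of groups. Relative to these neuronal markers only Dpysl3 had H1.4 CFT libraries that all lay below those of both other groups, at 33.1% to 34.6% with H1.4 CFT, 37.4% to 38.8% with WT H1.4 and 34.9% to 36.3% with GFP. Dpysl5 went the other way, with every H1.4 CFT library (20.3% to 21.7%) above those of WT H1.4 (19.4% to 20.2%) and of GFP (17.9% to 19.2%). For Crmp1 the H1.4 CFT libraries (21.4% to 21.8%) overlapped those of WT H1.4 (20.8% to 21.7%) and lay above those of GFP (20.2% to 20.5%). These ratios were added after the data were seen and are given without a test.

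Markers of other cells differed as well. The summed level of 10 astrocyte markers was 2108 to 2198 CPM with H1.4 CFT, 1612 to 1733 CPM with WT H1.4 and 2045 to 2190 CPM in GFP, and 6 of the 10 were called higher in H1.4 CFT over WT H1.4. Against GFP, 2 of the 10 were called higher. In WT H1.4 against GFP, 5 of the 10 were called lower, where 0.943% of all genes tested were called. Leaving out single libraries gave 3 to 6 calls there. Among all genes tested, 16.7% were called higher in H1.4 CFT over WT H1.4 and 13.3% over GFP. The 9 inhibitory neuron markers summed to 147.1 to 186.3 CPM with H1.4 CFT, 119.1 to 140.4 CPM with WT H1.4 and 161.7 to 211.8 CPM in GFP. Those of excitatory hippocampal neurons, also 9, summed to 1626 to 1858 CPM, 1982 to 2204 CPM and 2147 to 2159 CPM in the same order of groups. Of the inhibitory markers, 5 were called higher in H1.4 CFT over WT H1.4 and 5 lower in WT H1.4 against GFP. In H1.4 CFT against GFP, 1 was called higher and 2 lower. Leaving out single libraries gave 2 to 7, 0 to 5 and 0 to 5 calls in these comparisons. The 8 microglial markers summed to 8.29 to 12.1 CPM with H1.4 CFT, 10.6 to 14.3 CPM with WT H1.4 and 11.48 to 13.005 CPM in GFP. Most of that was P2ry12, at 6.42 to 12.5 CPM across all libraries, while Cx3cr1 had 7 counts over all 11. The 8 proliferating progenitor markers summed to 410.8 to 500.0 CPM with H1.4 CFT, 383.5 to 418.0 CPM with WT H1.4 and 389.2 to 451.3 CPM in GFP, with Nes at 123.1 to 179.9 CPM across all libraries and Sox2 listed at 0 in all. The part of cell composition in the falls was not tested.

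Most genes of the semaphorin pathway, which signals to the CRMPs, stood lower with H1.4 CFT than with WT H1.4. Of 17 genes of the semaphorin pathway 16 were tested, of which 11 fell, 1 rose and 4 did not pass. Their median log2 fold change was -0.17 against 0.018 over all genes tested, of which 19.2% fell. Of genes with a mean of at least 50 CPM, 33% fell. Nrp1, the neuropilin that binds semaphorin 3A, fell 1.39-fold (332.2 ± 15.7 against 460.8 ± 11.4 CPM, adjusted p = 2.08e-07 by edgeR, n = 4 each). Its signalling partner Plxna1, a plexin receptor, fell 1.21-fold and the adhesion co-receptor gene L1cam fell 1.20-fold, with adjusted p of 0.000406 and 0.000521. The tyrosine kinase gene Fyn fell 1.13-fold. The gene that rose was Rnd1, a small GTPase that binds plexins (log2 fold change 0.30, adjusted p = 0.00174), named after its values were seen. Against GFP, 6 genes of the pathway fell and 1 rose in H1.4 CFT. There 16.2% of all genes tested fell, and 26.8% of those with a mean of at least 50 CPM. These 7 calls became 4 without H1.4 CFT replicate 3 or without GFP replicate 4.

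Of the 13 kinases and phosphatases that act on CRMPs, 3 fell, 1 rose and 9 did not pass (median log2 fold change -0.059), a share called near the 35.9% of all genes tested. Against GFP, 3 fell and 1 rose, near the 29.5% of all genes, and these 4 calls became 2 without GFP replicate 4 and 7 with replicates 3 and 4 alone. Cdk5r1, which encodes the p35 activator of Cdk5, fell 1.34-fold (142.2 ± 12.2 against 190.6 ± 14.5 CPM, adjusted p = 4.03e-05). Its span overlaps that of a related entry, Cdk5r1l, in the GRCr8 gene table. Limk1, the cofilin kinase, rose 1.15-fold (adjusted p = 0.00342), and Ppp2ca, a catalytic subunit of phosphatase 2A, fell 1.11-fold (adjusted p = 0.0120). Gsk3b had a log2 fold change of -0.15 (adjusted p = 0.0204), a call that ended without H1.4 CFT replicate 3 (adjusted p = 0.0780) or 4 (0.0640) and without WT H1.4 replicate 3 (0.0607) or 4 (0.0791). Among replicates 1 and 2 its log2 fold change was -0.019 (adjusted p = 0.736).

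Genes of proteins that CRMPs bind were mostly lower. Of the 15 listed, 10 fell, 2 rose and 3 did not pass in H1.4 CFT over WT H1.4 (median log2 fold change -0.29). Among all genes tested 19.2% fell, and 33% of those with a mean of at least 50 CPM. Against GFP, 8 fell, 3 rose and 4 did not pass. There 16.2% of all genes tested fell, and 26.8% of those with a mean of at least 50 CPM. The tubulin genes Tuba1a, Tubb2b and Tubb2a fell 1.43-fold, 1.43-fold and 1.35-fold, with adjusted p of 5.58e-07, 4.95e-06 and 6.89e-06. Tubulin genes are close copies of each other, so the way reads were split among them is uncertain. Map2, the dendritic microtubule protein, fell 1.46-fold. The genes that rose, named after their values were seen, were Flna, which encodes the actin cross-linker filamin A (log2 fold change 0.24), and Cyfip1, a subunit of the WAVE complex (0.16).

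More of the genes around GAP-43 fell than rose. Of 18 tested, 10 fell, 2 rose and 6 did not pass in H1.4 CFT over WT H1.4 (median log2 fold change -0.17). Against GFP 9 fell, 1 rose and 8 did not pass. In these comparisons 19.2% and 16.2% of all genes tested fell, and 33% and 26.8% of those with a mean of at least 50 CPM. Prkcb, a gene of the protein kinase C family that phosphorylates GAP-43, fell 2.09-fold (90.5 ± 14.3 against 189.0 ± 11.7 CPM, adjusted p = 1.50e-05). Basp1, a growth cone membrane protein often grouped with GAP-43, fell 1.21-fold and the calmodulin gene Calm2 fell 1.22-fold. Calmodulin is encoded by several genes of identical protein, so this value is less certain. Elavl4, whose product HuD binds and stabilises Gap43 mRNA, fell 1.43-fold (94.2 ± 10.8 against 135.1 ± 8.26 CPM, adjusted p = 3.18e-05). Khsrp, whose product promotes decay of the same mRNA, rose (log2 fold change 0.16, adjusted p = 0.00906) and was named after its values were seen.

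In the growth cone cytoskeleton list, 23 of 37 genes fell and the other 14 did not pass in H1.4 CFT over WT H1.4. The median log2 fold change was -0.22. Among all genes tested 19.2% fell, and 33% of those with a mean of at least 50 CPM. Doublecortin, encoded by Dcx, and the stathmins Stmn1 and Stmn2 bind microtubules or tubulin in growing neurites, and their genes fell 1.47-fold, 1.41-fold and 1.43-fold. Myh10, a non-muscle myosin of the growth cone, fell 1.27-fold (adjusted p = 1.02e-05). Against GFP, 21 of the 37 fell and 1 rose. There 16.2% of all genes tested fell, and 26.8% of those with a mean of at least 50 CPM.

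Factors linked to axon regeneration, a state in which Gap43 is known to be high, were called about as often as other genes. Of 12 tested, 2 rose, 2 fell and 8 did not pass (median log2 fold change 0.025), where 35.9% of all genes tested were called. Jun rose 1.39-fold (141.2 ± 9.26 against 101.5 ± 5.78 CPM) and Stat3 rose 1.31-fold, with adjusted p of 1.06e-06 and 1.20e-06. Against GFP, Stat3 was not called in H1.4 CFT (adjusted p = 0.126) and was called lower in WT H1.4 (log2 fold change -0.30, adjusted p = 0.00212). Klf6 and Myc fell 1.34-fold and 1.20-fold, and Myc had an adjusted p of 0.188 among replicates 1 and 2. Dpys, the dihydropyrimidinase after which the Dpysl genes are named, was near absent at 0.662 ± 0.179 CPM with H1.4 CFT, 0.328 ± 0.174 CPM with WT H1.4 and 0.430 ± 0.268 CPM in GFP, and was not tested. Of its pathway, Dpyd had a log2 fold change of 0.23 (adjusted p = 0.0378), a call lost in 7 of 8 omissions of a single H1.4 CFT or WT H1.4 library (adjusted p up to 0.132), and Cad did not pass (0.085, adjusted p = 0.228).

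**Figure D5:**
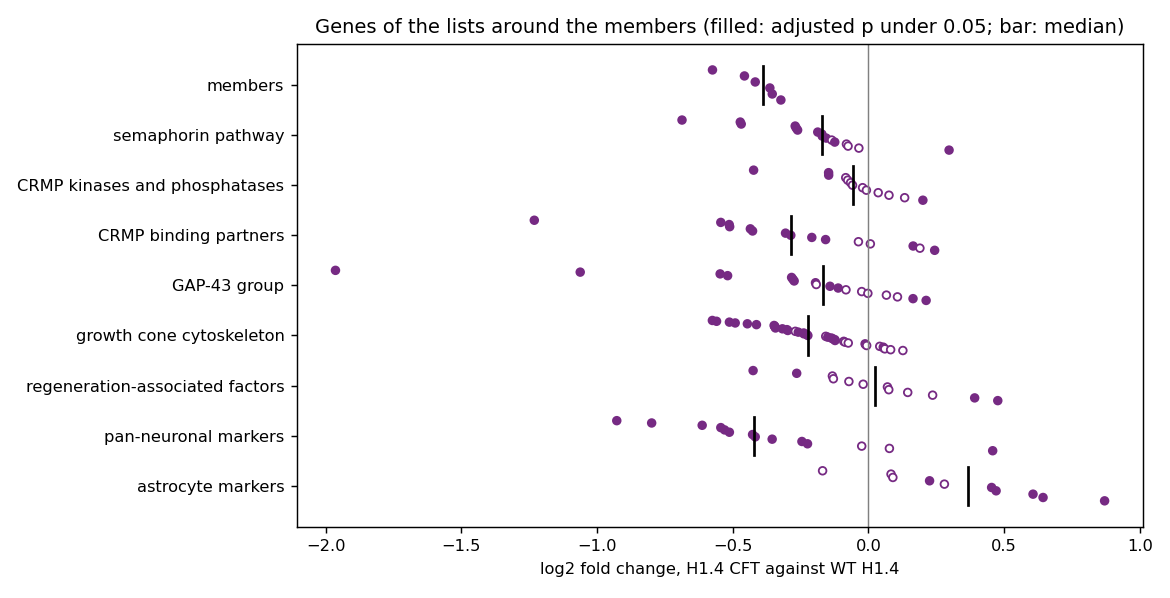
Log2 fold change of H1.4 CFT over WT H1.4 for each tested gene of the members and of 8 lists, 1 point per gene, filled where the adjusted p was under 0.05, with the list median as a bar. The members all lie between -0.57 and -0.32, most points of the growth cone and pan-neuronal lists lie below 0, and the astrocyte markers lie mostly above 0.

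Each member's closest neighbours in pattern were sought among 10218 genes with a mean of at least 10 CPM, by Pearson's r of log2 CPM over the 11 libraries. These libraries share groups and number pairs, and between 5.58% (Dpysl5) and 10.6% (Crmp1) of the candidates exceeded 0.9. Closest to Dpysl3 was Nrp1 (r = 0.997), the semaphorin co-receptor named above, followed by the cadherin gene Cdh8 (0.994) and the adhesion receptor gene Cxadr (0.991). For Gap43 they were Fbxo44 (0.995), an F-box gene, Tg (0.994), whose span overlaps that of Sla, and Arl8a (0.992), a small GTPase of lysosome transport. Crmp1 ran with the transcription factor gene Mycn (0.994) and the NMDA receptor subunit gene Grin3a (0.994). The genes most like Dpysl2 were Syt7 (0.992), a calcium sensor of vesicle release, Fam135b (0.991) and Tmem254 (0.989). Dpysl4 went with Spock2 (0.994), a proteoglycan gene, Tmem130 (0.992) and Hebp1 (0.990), and Dpysl5 with Septin3 (0.990), Pacs2 (0.990) and Rnf157 (0.989). Among the members themselves r ran from 0.844 for Dpysl5 with Gap43 to 0.985 for Dpysl4 with Gap43. After group means were taken out the same pairs stood at 0.695 and 0.940, and the highest value was 0.976, for Dpysl3 with Dpysl5.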

How the data were processed

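Gene counts of 11 libraries were used as deposited. Per the submitters' processing notes, the authors' tools were STAR 2.7.2b and HTSeq 0.10.0 on the mRatBN7.2 build. The annotation release and strand setting are not given in the sources used here, so reads of overlapping genes cannot be told apart. In the GRCr8 gene table, the spans of Crmp1, Dpysl3 and Dpysl5 overlap other entries. The deposited raw counts cover 42172 gene entries, and 5 summary entries were left out. Reads assigned to genes made up 45.9% to 46.9% of each table's total.

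CPM were computed here from the counts with TMM scaling. Genes were filtered with filterByExpr (minimum count 10, minimum total 15), which kept 17294, and tested with edgeR 4.0.16 (quasi-likelihood, robust, 3 groups in 1 fit, 8 residual degrees of freedom) in R 4.3.3. The Benjamini-Hochberg adjustment ran over all 17294, with a threshold of 0.05. The code was tested on simulated data. Alternatives were RLE scaling, DESeq2 1.42.0, limma-voom (limma 3.58.1), other filters, a replicate block, only the groups compared, a non-robust fit, number pairs and each library left out. The members and gene lists were chosen with earlier results of these data known. The number-pair difference test and the ratios to neuronal markers were added after seeing the data.

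Named genes were the members, up to 4 genes with the smallest p per list about the members (the 2 smallest where fewer than 2 passed) for H1.4 CFT over WT H1.4, the 3 genes most correlated with each member, and Dpys. A few others are marked in the text as named after their values were seen. Some genes that these rules select are not reported here.

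Same-numbered libraries deviated together from their group means, with correlations over all genes tested of 0.142 to 0.192 for H1.4 CFT with WT H1.4 and 0.124 to 0.255 between H1.4 CFT and GFP, all above the 0.1 taken to show pairing. Between WT H1.4 and GFP they were 0.206, 0.113 and 0.0927, and 0.315, 0.159 and 0.153 over the 14381 genes with a mean of at least 2 CPM. The numbers were therefore taken to pair the libraries, with less certainty in that last comparison. Libraries with different numbers were not correlated for contrast, so this check cannot tell pairing by number from likeness within number pairs. The p-values printed are from the fit without the block unless the block is named. No libraries held identical counts.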

Additional observations from a re-analysis of the deposited data

Results flagged for a closer look

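The fall in H1.4 CFT over WT H1.4 differed between replicates 3 and 4 and replicates 1 and 2 for each of the 6 genes, in an edgeR fit with a group by number pair term. The share of all genes that differed in this way was not counted, so the difference is not shown to be particular to the 6. The split was taken from the likeness of these libraries and the fit was added after the data were seen, so it restates that likeness and is no independent evidence. The log2 fold change among replicates 3 and 4 minus that among replicates 1 and 2 was -0.25 for Crmp1, -0.20 for Dpysl2, -0.18 for Dpysl3, -0.27 for Dpysl4, -0.18 for Dpysl5 and -0.22 for Gap43. The part of a batch in this was not tested, since no label names one.

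One library stood apart from its group in a marker sum. H1.4 CFT replicate 2 had 74.0 CPM summed over 12 vascular and fibroblast markers, against 65.0 to 66.5 CPM in the other 3 H1.4 CFT libraries. It was the 1 group set apart among 64 tested, and chance alone sets apart about 1 in 20 by this measure.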

How the results depend on the processing

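For H1.4 CFT over WT H1.4, all 6 genes kept their direction and their call under every alternative run. For H1.4 CFT against GFP they did so except when GFP replicate 2 alone was left out. Dpysl2 (log2 fold change -0.24) and Dpysl5 (-0.14) then lost their call (leave-one-out ranges -0.35 to -0.24 and -0.22 to -0.14). Leaving out single libraries gave log2 fold changes of -0.61 to -0.54 for Dpysl3 and -0.48 to -0.35 for Gap43 against WT H1.4.

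The comparison that moved most was WT H1.4 against GFP. Its count of genes called, 163, became 268 with DESeq2, 462 with no low-count filter, 348 with only the groups compared, 1596 with replicates 3 and 4 alone and 44 to 306 with single libraries left out. Of the members, 1 in place of 0 was called (Dpysl3, log2 fold change 0.15 with no filter and 0.14 with only the groups compared) and 3 with replicates 3 and 4 alone (Crmp1 0.12, Dpysl3 0.20, Dpysl5 0.21). Replicates 3 and 4 were chosen for their likeness, so a fit of them alone calls too many genes. In those replicates the Dpysl4 share differed by -0.317 percentage points for H1.4 CFT against GFP and by -0.251 for WT H1.4 against GFP. The log2 fold change of Cad for H1.4 CFT over WT H1.4 reversed to -0.0053 there, from a value that had not passed. The cause was not tested.

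With the replicate block, no call of a member changed, Dpysl3 stood at -0.58 for H1.4 CFT over WT H1.4, and the count for WT H1.4 against GFP was 248.

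The number of libraries limits the share tests, whose smallest possible p is 0.0286. Missing transcript lengths prevent comparing levels between genes.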
